A study of Mus musculus with 35 samples.

Results

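Sox4, Sox9 and 8 genes of the Polycomb repressive complexes (Ezh1, Ezh2, Eed, Suz12, Jarid2, Bmi1, Ring1 and Rnf2) were followed in NMuMG cells, an epithelial line from the mouse mammary gland, kept with a JNK inhibitor or with its solvent DMSO. The 10 genes were taken by their symbols, and each matched 1 of the 20261 rows of the deposited table. All 10 passed the filter on low values (10 or more normalized reads on average in any of the groups), as did 13896 genes in all. The inhibited arm, labelled JNKi, and the DMSO arm each had 2 libraries at 24, 48, 72 and 96 h and at 7 d, so 20 libraries in 10 groups. Every library is labelled WT genotype and strain E9. The compound behind the name JNKi is not named in the labels. The titles place both arms in a course of epithelial-mesenchymal transition (EMT). The protocol attached to every sample has TGF-β at 2 ng/ml, renewed with the medium every 2 days, but the labels do not say in so many words that the JNKi and DMSO cells received it. Among these 20 libraries there was no group before 24 h and none without DMSO or JNKi.

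Polycomb proteins keep genes silent by marking their chromatin. Polycomb repressive complex 2 (PRC2) places methyl groups on lysine 27 of histone H3 through Ezh2 or its relative Ezh1, with Eed and Suz12 as the other core subunits and Jarid2 as a cofactor. Polycomb repressive complex 1 (PRC1) places ubiquitin on histone H2A through the RING-finger ligases Ring1 and Rnf2, which pair with partners such as Bmi1. Sox4 and Sox9 are transcription factors with an HMG box. Sox4 is induced by TGF-β in mammary epithelial cells, where it is known as an activator of Ezh2 in EMT, and Sox9 is known for cartilage formation and for stem and progenitor cells of the mammary gland. JNK is a stress-activated kinase that phosphorylates the AP-1 subunit Jun.

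The promoters of 4 of these genes are printed because their levels moved in different ways during the course. Sox4 was lowest at 7 d, Ezh1 was highest at 96 h, and Ezh2 lay below its 24 h libraries at each later time. Suz12 was also lowest at 7 d, but was lower at 48 and 72 h than at 24 and 96 h. Each window runs 5′ to 3′ on the gene's strand over 300 bases around the start of the gene, in RefSeq on build GRCm38.p6, which is not the build used for the counts. RefSeq windows were matched for 9 of the 10 genes, with 2 windows for Jarid2. Capitals mark matches to the E2F, Sox and CCAAT motifs described after the sequences.
Sox4 chr13:28953650-28953949 (- strand): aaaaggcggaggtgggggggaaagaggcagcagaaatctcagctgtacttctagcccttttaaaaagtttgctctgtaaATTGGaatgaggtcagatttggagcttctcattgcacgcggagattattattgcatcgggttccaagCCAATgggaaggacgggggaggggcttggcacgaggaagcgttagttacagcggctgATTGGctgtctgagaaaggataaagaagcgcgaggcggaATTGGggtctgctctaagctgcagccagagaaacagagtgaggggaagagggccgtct
Ezh1 chr11:101226414-101226713 (- strand): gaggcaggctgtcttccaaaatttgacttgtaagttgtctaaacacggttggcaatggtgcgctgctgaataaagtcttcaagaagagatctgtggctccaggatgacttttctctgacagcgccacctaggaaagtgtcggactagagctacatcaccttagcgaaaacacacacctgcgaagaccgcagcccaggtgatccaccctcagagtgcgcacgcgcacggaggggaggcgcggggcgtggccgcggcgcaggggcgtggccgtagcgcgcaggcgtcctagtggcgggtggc
Ezh2 chr6:47594981-47595280 (- strand): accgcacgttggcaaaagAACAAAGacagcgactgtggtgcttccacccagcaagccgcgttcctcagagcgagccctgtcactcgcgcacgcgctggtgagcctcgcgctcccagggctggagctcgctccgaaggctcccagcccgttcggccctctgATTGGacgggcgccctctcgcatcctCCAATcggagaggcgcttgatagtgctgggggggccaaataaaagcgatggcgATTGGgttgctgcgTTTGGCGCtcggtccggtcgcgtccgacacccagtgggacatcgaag
Suz12 chr11:79992856-79993155 (+ strand): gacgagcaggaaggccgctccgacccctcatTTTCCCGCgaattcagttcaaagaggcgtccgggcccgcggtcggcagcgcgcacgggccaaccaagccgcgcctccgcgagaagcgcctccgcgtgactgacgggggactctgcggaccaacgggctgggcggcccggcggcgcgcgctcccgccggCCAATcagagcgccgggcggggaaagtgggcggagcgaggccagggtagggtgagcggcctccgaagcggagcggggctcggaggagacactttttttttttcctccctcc

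The motifs were chosen from general knowledge after these sequences had been seen, and were searched on both strands. The E2F motif, of the factors that drive cell cycle genes, was taken as TTTCCCGC, TTTCGCGC, TTTGCCGC or TTTGGCGC. It matched in the windows of Ezh2, at 3 bases after the start, and Suz12, at -219 from the start, that is in 2 of the 10 windows, and in 2.26% of 32851 promoter windows of the same length. The Sox motif, AACAAAG or AACAATG, matched in the Ezh2 window alone, at -232 from the start, and in 9.36% of all windows. CCAAT, the box bound by NF-Y, matched in 6 of the 10 windows (those of Sox4, Ezh2, Suz12 and Eed and both of Jarid2) and in 37.4% of all windows, with 4 matches for Sox4, 3 for Ezh2 and 1 for Suz12. In some matches the CCAAT box is read on the other strand and appears as its reverse complement. Ring1 held 2 matches to the CRE motif TGACGTC, found in 3.21% of all windows. The AP-1 motif TGANTCA, found in 7.81% of all windows, had 0 matches in the 10 windows. A match describes the letters of a window and is not a measured binding site.

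Read totals recovered from the deposited values ran from 9.5 to 48.6 M reads per library. The shallowest library was replicate 1 of JNKi at 7 d. The lowest member value rested on 153 reads, for Jarid2. Luminal keratins were high, and the sum over 6 luminal markers was 99484 to 378038 normalized reads in JNKi libraries and 131737 to 347147 in DMSO libraries, while the epithelial adhesion gene Epcam was at 0 in 15 of the 20 libraries and at most 12.6 normalized reads in the rest. The leukocyte markers summed to 2276 to 2432 normalized reads in JNKi and 1824 to 1916 in DMSO at 7 d, against 2093 to 2453 in JNKi and 2086 to 2377 in DMSO at 24 h, with their defining gene Ptprc between 0 and 17.5 in all libraries. Of the 6 leukocyte markers that passed the filter, 5 were higher and 1 was lower at 7 d than at 24 h in each arm. However, 3 of the 6 entered through 7 d groups alone, so their rise was fixed by the filter. Of the other 3, 2 were higher and 1 was lower in each arm. The endothelial markers summed to 679 to 694 in JNKi and 685 to 739 in DMSO at 7 d, against 495 to 499 in JNKi and 467 to 540 in DMSO at 24 h, with Pecam1 between 0 and 26.6 in all libraries and 3 of the 4 markers that passed the filter higher in each arm. One of these, Kdr, passed the filter through 7 d groups alone, so its rise was fixed by the filter. Without Kdr, 2 of 3 were higher in each arm, while 1 was lower in JNKi and 0 were lower in DMSO. The basal markers summed to 7509 to 8202 in JNKi and 7577 to 12089 in DMSO at 7 d, against 1908 to 1927 in JNKi and 1444.5 to 1615 in DMSO at 24 h. Of the 5 that passed the filter, 3 were higher in each arm, while 2 were lower in JNKi and 1 was lower in DMSO. Beside these counts of leukocyte, endothelial and basal markers, 31.7% of all genes rose and 26.3% fell in JNKi. In DMSO 32% of all genes rose and 28% fell. The part of these markers in the changes at 7 d was not tested. E-cadherin, Cdh1, had 4181 ± 128 normalized reads in JNKi and 4073 ± 462 in DMSO at 7 d (mean ± SD, n = 2 each), against 13845 ± 93.2 in JNKi and 11144 ± 771 in DMSO at 24 h. Fibronectin, Fn1, was 289753 ± 204 in JNKi and 453826 ± 40220.2 in DMSO at 96 h, against 54409 ± 12675 in JNKi and 48183 ± 6974 in DMSO at 24 h. The number of genes above 0 also differed with time, 16973 to 18956 in 7 d libraries and 14424 to 14926 in 24 h libraries, and its part in the results was not tested. In bulk RNA, fewer cells of a type and less RNA per cell cannot be told apart. The labels do not say that the 2 replicates of a group were separate cultures, so a p-value here reflects no more than the scatter of these libraries, part or all of which may be technical.

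Sox4 and Sox9 were lower at 7 d than at 24 h in both arms. Sox4 had 11635 and 11168 (24 h), 12208 and 10338 (48 h), 15275 and 10921 (72 h), 13817 and 14249 (96 h), and 6344 and 6519 (7 d) normalized reads in the JNKi libraries, replicate 1 before replicate 2 at each time. In the DMSO libraries Sox4 had 11259 and 11432 (24 h), 12059 and 13219.7 (48 h), 15289 and 11214 (72 h), 12673 and 14475 (96 h), and 9139 and 7684 (7 d). All 4 libraries of 7 d lay below all 16 libraries of 24 to 96 h. The change at 96 h against 24 h was 0.30 on the log2 scale in JNKi (SE 0.15, adjusted p = 0.093) and 0.26 in DMSO (SE 0.15, adjusted p = 0.146), neither past the test. Sox4 fell by 7 d against 24 h in JNKi (log2 change -0.83, SE 0.15, adjusted p = 0.000204 by limma) and in DMSO (log2 change -0.44, SE 0.15, adjusted p = 0.0187). The DMSO call was lost without replicate 1 or replicate 2 of DMSO at 24 h (adjusted p = 0.0545 and 0.074) and without replicate 2 of DMSO at 7 d (0.154). Against 96 h, in a comparison added after the data had been seen, Sox4 was lower at 7 d in JNKi (log2 change -1.13, SE 0.15, adjusted p = 3.83e-05) and in DMSO (log2 change -0.69, SE 0.15, adjusted p = 0.00207).

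Sox9 had 1626 and 2110.5 (24 h), 1411 and 1771 (48 h), 1776 and 1114 (72 h), 1282 and 1426 (96 h), and 610 and 687 (7 d) normalized reads in the JNKi libraries. The DMSO libraries held 1597 and 1818 (24 h), 1418 and 1697 (48 h), 1969 and 1345 (72 h), 1188 and 1568 (96 h), and 811 and 751 (7 d). Here too the 4 libraries of 7 d lay below the other 16, and the 2 replicates of 72 h stood far apart in both arms, with replicate 1 above replicate 2. Sox9 fell at 7 d against 24 h in JNKi (log2 change -1.52, SE 0.21, adjusted p = 1.81e-05) and in DMSO (log2 change -1.13, SE 0.21, adjusted p = 0.000251), the lowest log2 changes of the 10 genes in both arms. The added comparison of 7 d with 96 h gave -1.06 in JNKi (adjusted p = 0.001) and -0.81 in DMSO (adjusted p = 0.00715). The DMSO call was lost without replicate 2 of DMSO at 96 h (adjusted p = 0.0942) or at 7 d (0.0624). Over the 10 group means the correlation of Sox4 with Sox9 was 0.83 on the log2 scale. This is a description over groups that share libraries of the same arms and times.

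Of 15 Sox family genes listed, 8 passed the filter. Sox2, a stem cell factor, passed it through the 7 d groups alone, so that its higher value there was fixed by the filter. It was at 13.9 and 10.5 normalized reads in JNKi and at 6.7 and 15.5 in DMSO at 7 d, against 0 in all 4 libraries of 24 h. Of the other 7, 1 rose and 2 fell by 7 d in each arm, where 31.7% of all genes rose and 26.3% fell in JNKi and 32% rose and 28% fell in DMSO. Those that fell were Sox4 and Sox9, and the 1 that rose was Sox8, a relative of Sox9, from a low level (33.3 and 25.2 normalized reads in JNKi and 11.8 and 31.1 in DMSO at 7 d, against 9 and 9.6 in JNKi and 9.8 and 5.8 in DMSO at 24 h). Among 13 genes listed as activated by Sox9 in chondrocytes, 7 passed the filter, of which Col11a1, Acan and Matn1 passed it through 7 d groups alone. Of the other 4, 3 rose and 0 fell at 7 d against 24 h in each arm. Col11a2, a chain of type XI collagen, averaged 36.5, 100.6, 171, 351 and 578 normalized reads in JNKi at 24, 48, 72 and 96 h and 7 d, and 41.2, 76.7, 151, 299.6 and 221 in DMSO. It was above its 24 h level from 48 h on in both arms. A link between the courses of Col11a2 and Sox9 was not tested.

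Ezh2, the catalytic subunit of PRC2 in dividing cells, was lower at each later time than at 24 h in both arms. The JNKi libraries had 3306 and 3694 (24 h), 2644 and 2811 (48 h), 2425 and 2071 (72 h), 1652 and 1609 (96 h), and 1699.7 and 1541 (7 d) normalized reads. In DMSO, Ezh2 had 3504 and 3969 (24 h), 2817 and 2684 (48 h), 2579.7 and 2537 (72 h), 1799 and 1714 (96 h), and 1954 and 2019.6 (7 d). All 16 later libraries lay below all 4 libraries of 24 h. At 96 h against 24 h Ezh2 fell in JNKi (log2 change -1.10, SE 0.09, adjusted p = 5.42e-08) and in DMSO (log2 change -1.09, SE 0.09, adjusted p = 3.8e-08), which is 0.467 and 0.471 of its 24 h level. At 7 d against 24 h it was lower again in JNKi (log2 change -1.11, SE 0.09, adjusted p = 8.66e-08) and in DMSO (log2 change -0.91, SE 0.09, adjusted p = 4.48e-07). Between 96 h and 7 d no change passed the test, with -0.01 in JNKi (95% interval -0.20 to 0.18) and 0.18 in DMSO (95% interval -0.01 to 0.37). These calls of Ezh2 against 24 h held under every alternative run.

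Ezh1, the relative of Ezh2 that prevails in cells that no longer divide, moved the other way at 96 h. It had 1059 and 895 (24 h), 946 and 773 (48 h), 909 and 973 (72 h), 1403 and 1402 (96 h), and 1068 and 1151 (7 d) normalized reads in the JNKi libraries. Ezh1 values in the DMSO libraries were 975 and 839 (24 h), 1033 and 925 (48 h), 904 and 1036 (72 h), 1425 and 1396 (96 h), and 1185 and 1130.1 (7 d). The 4 libraries of 96 h were the highest of the 20. Ezh1 rose at 96 h against 24 h in JNKi (log2 change 0.53, SE 0.12, adjusted p = 0.000889) and in DMSO (log2 change 0.64, SE 0.12, adjusted p = 0.000134). At 7 d it was still above 24 h in DMSO (log2 change 0.35, SE 0.12, adjusted p = 0.014), a call lost without replicate 2 of DMSO at 24 h (adjusted p = 0.15) or replicate 1 of DMSO at 7 d (0.0777), while in JNKi the change was 0.19 with 95% interval -0.06 to 0.43 and did not pass. Per kilobase of exon, using the union of exons in GENCODE vM21, the ratio of Ezh2 to Ezh1 was 4.04, 3.58, 2.67, 1.30 and 1.63 in JNKi at 24, 48, 72 and 96 h and 7 d, and 4.64, 3.14, 2.96, 1.39 and 1.91 in DMSO (means, n = 2). Ezh2 RNA therefore stayed above Ezh1 RNA per length in every group mean. The correlation of Ezh1 with Ezh2 over the 10 group means was -0.78.

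Suz12, which the PRC2 core needs for its stability, had 4385 and 4921 (24 h), 3488 and 3662 (48 h), 4081 and 3507 (72 h), 4303 and 4463 (96 h), and 3122 and 3076 (7 d) normalized reads in the JNKi libraries. In the DMSO libraries its values were 4409 and 5302 (24 h), 3652 and 3936 (48 h), 3743 and 3863 (72 h), 4194 and 4658 (96 h), and 3348 and 2920.5 (7 d). It was high at 24 and 96 h and lowest at 7 d. Suz12 fell at 7 d against 24 h in JNKi (log2 change -0.58, SE 0.10, adjusted p = 0.000143) and in DMSO (log2 change -0.63, SE 0.10, adjusted p = 6.5e-05), while at 96 h its change of -0.08 in JNKi and -0.13 in DMSO did not pass. Eed, the subunit that reads methylated H3K27, did not follow Ezh2 and Suz12. The JNKi libraries held 1237 and 1069 (24 h), 1316 and 1469.5 (48 h), 1402 and 1567 (72 h), 1306 and 1377 (96 h), and 1733 and 1532 (7 d) normalized reads of Eed. The DMSO libraries held 1179 and 1289 (24 h), 1245 and 1294 (48 h), 1249 and 1344 (72 h), 1308 and 1303 (96 h), and 1306 and 1349 (7 d). The 10 DMSO libraries stayed between 1179 and 1349. Eed rose at 7 d against 24 h in JNKi (log2 change 0.50, SE 0.10, adjusted p = 0.000328), while in DMSO the change of 0.11 did not pass (adjusted p = 0.351). The direct test of the JNKi effect at 7 d against its mean at 24 to 96 h did not separate the times for Eed (log2 change 0.23, SE 0.11, adjusted p = 0.248).

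Jarid2, the cofactor that brings PRC2 to its targets, was the lowest of the 10 per length and had its highest values at 72 h, 686 and 617 normalized reads in JNKi and 732 and 697 in DMSO. Its other JNKi libraries ran from 424 to 605 and its other DMSO libraries from 434 to 597. At 7 d, Jarid2 had 424 and 444 in JNKi, against 562 and 489 in JNKi at 24 h (log2 change -0.27, SE 0.11, adjusted p = 0.0427). That call did not hold in 11 of 30 alternatives, among them each JNKi library of 7 d and replicate 1 of JNKi at 24 h left out (adjusted p = 0.165, 0.081 and 0.282), the 2 groups compared alone (0.105) and DESeq2 (0.063). In DMSO the change at 7 d was 0.05 (adjusted p = 0.688).

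Over the 10 groups the ratio of the highest to the lowest group mean was 1.51 for Rnf2, 1.39 for Ring1 and 1.25 for Bmi1, the last being the smallest among the 10 genes. Rnf2, the main H2A ubiquitin ligase of PRC1, had 1472 and 1401 (24 h), 1629 and 1486 (48 h), 1501 and 1334 (72 h), 1743 and 1852 (96 h), and 1189.5 and 1202 (7 d) normalized reads in the JNKi libraries. In DMSO, Rnf2 had 1398 and 1525 (24 h), 1420.1 and 1614 (48 h), 1368 and 1317 (72 h), 1741 and 1867 (96 h), and 1554 and 1380.2 (7 d). It was highest at 96 h in both arms and, in JNKi, lowest at 7 d. Rnf2 rose at 96 h against 24 h in JNKi (log2 change 0.32, SE 0.09, adjusted p = 0.00666) and in DMSO (log2 change 0.30, SE 0.09, adjusted p = 0.00914), with each call lost when a library was left out: replicate 2 of JNKi at 24 h or at 96 h (adjusted p = 0.0515 and 0.0602), and replicate 1 of DMSO at 24 h or replicate 2 of DMSO at 96 h (0.0809 and 0.0774). By 7 d Rnf2 fell against 24 h in JNKi (log2 change -0.26, SE 0.09, adjusted p = 0.0224), a call lost without either JNKi library of 7 d (0.0835 and 0.0709) or replicate 1 of JNKi at 24 h (0.107), and in DMSO the change was 0.00 (adjusted p = 0.975). Against 96 h, in the added comparison, Rnf2 was lower at 7 d in JNKi (log2 change -0.59, SE 0.09, adjusted p = 0.000167), called under all 30 alternatives run, and in DMSO (log2 change -0.30, SE 0.09, adjusted p = 0.0189). This DMSO call of Rnf2 was lost without replicate 2 of DMSO at 96 h (adjusted p = 0.135) or at 7 d (0.179). It was also lost with the 2 groups compared alone (0.0659). Ring1, its paralog, ranged from 593 to 803 normalized reads in JNKi libraries and from 588 to 876 in DMSO libraries, with its highest group means at 96 h in both arms. Ring1 rose at 96 h against 24 h in DMSO (log2 change 0.35, SE 0.11, adjusted p = 0.0127), a call lost without replicate 1 of DMSO at 24 h (0.101) or at 96 h (0.0698), and did not pass in JNKi (0.17). Bmi1, the partner known for silencing the Cdkn2a locus, ranged from 1976 to 2269 normalized reads in JNKi libraries and from 1844 to 2485 in DMSO libraries, while in the DMSO arm Eed had the smaller ratio of highest to lowest library (1.14 for Eed and 1.35 for Bmi1). It was lower at 7 d than at 24 h in DMSO (log2 change -0.24, SE 0.09, adjusted p = 0.0258), but not without replicate 2 of DMSO at 24 h (0.173), without replicate 2 of DMSO at 7 d (-0.24 became -0.11, adjusted p = 0.309) or with the 2 groups compared alone (0.142).

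**Figure D1:**
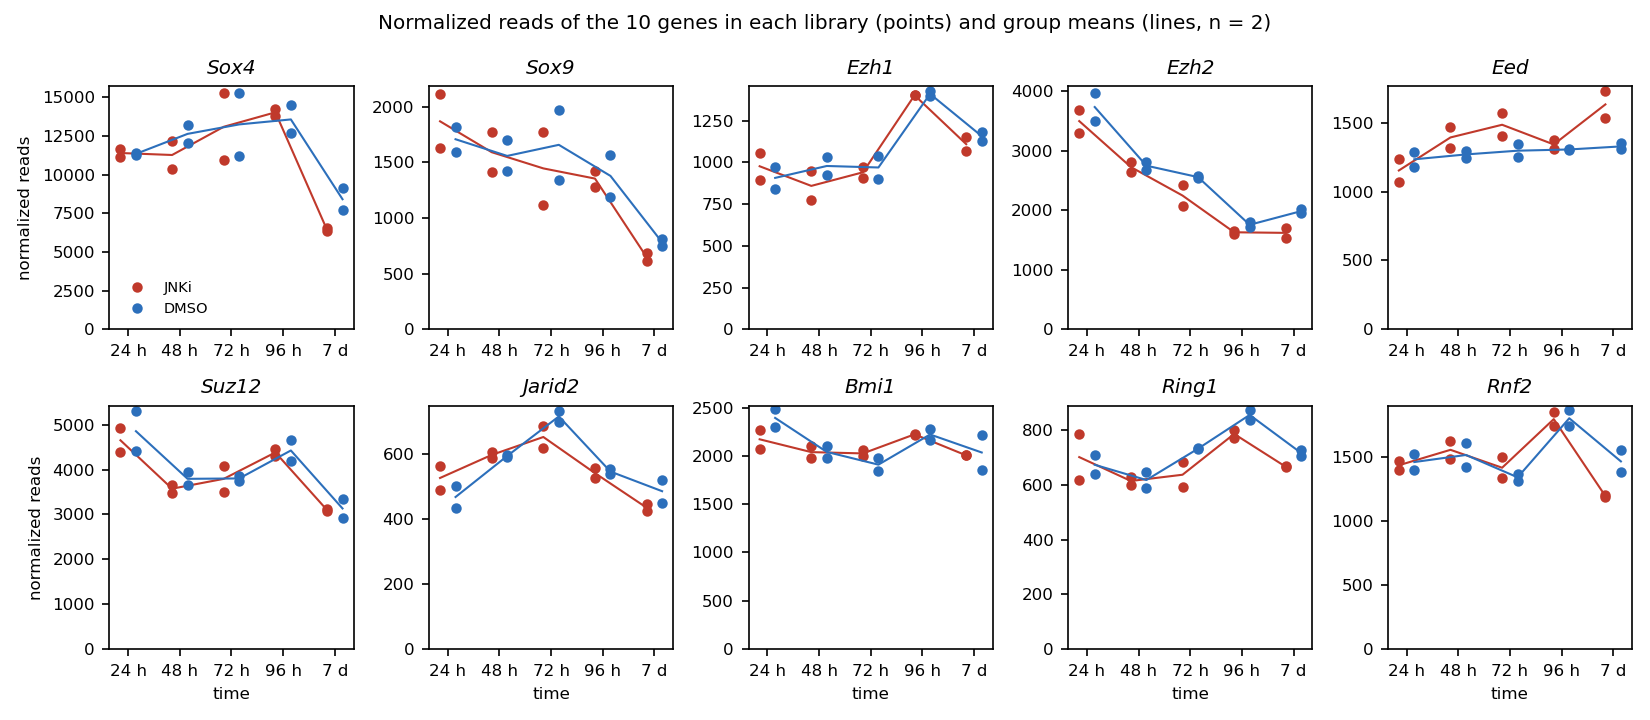
Normalized reads (vertical axis, from 0) of each of the 10 genes against time, with a point per library and lines through the group means (n = 2) for JNKi and DMSO. Ezh2 declines through 96 h, Ezh1 peaks at 96 h, and Sox4 and Sox9 are lowest at 7 d in both arms.

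Counted over the 10 genes, 3 passed the test at 96 h against 24 h in JNKi (2 higher and 1 lower), where 59.8% of all genes tested passed (30.8% higher and 29% lower). In DMSO 4 passed (3 higher and 1 lower), where 63.3% of all genes did (32.7% higher and 30.5% lower). By 7 d, 7 differed from 24 h in JNKi (1 higher and 6 lower), where 58% of all genes did (31.7% higher and 26.3% lower). The DMSO arm had 6 (1 higher and 5 lower), where 59.9% of all genes passed (32% higher and 28% lower). For the added comparison of 7 d with 96 h the counts were 7 in JNKi (1 higher and 6 lower), where 39.7% of all genes passed (23.2% higher and 16.6% lower), and 4 in DMSO (0 higher and 4 lower), where 36.5% of all genes passed (21% higher and 15.5% lower). Against those shares the counts at 96 h and at 7 d against 24 h are not a result about the 10 genes as a set, since most genes moved over the course. The 2 arms were each compared with their own 24 h libraries, so the comparisons of one arm share no library with those of the other, while within an arm the comparisons with 24 h share the 24 h libraries.

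The arms were compared at each time. At 24, 48, 72 and 96 h, 0 of the 10 genes differed between JNKi and DMSO by limma, where 0%, 0%, 0.072% and 0.0072% of all genes passed. At these times 610, 521, 1125 and 677 of the 13896 genes were at an unadjusted p under 0.05. Among the 10 genes the log2 difference, JNKi over DMSO, lay between -0.21 and 0.19 at those times, the ends being Sox9 and Eed at 72 h. For Sox4 the difference was 0.01 at 24 h and 0.05 at 96 h, with 95% intervals of -0.31 to 0.32 and -0.26 to 0.37. The edgeR and DESeq2 fits of the recovered reads also called 0 of the 10 at each of these times. Missing the threshold does not show that the arms were alike.

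At 7 d, 1 of the 10 genes passed. Ezh2 had 1699.7 and 1541 normalized reads in JNKi and 1954 and 2019.6 in DMSO, and both JNKi libraries lay below both DMSO libraries, as in 26.2% of all genes. Ezh2 fell in JNKi against DMSO at 7 d (log2 change -0.30, SE 0.09, adjusted p = 0.0465), where 10.2% of all genes passed, 4.84% higher and 5.33% lower. The call held in 15 of 32 alternatives. It was lost without any 1 of the 4 libraries of 7 d (adjusted p = 0.0908 and 0.273 without the JNKi libraries, 0.143 and 0.132 without the DMSO libraries), without any 1 library of 48 or 96 h or DMSO library of 72 h (0.0517 to 0.0629), without the intensity trend (0.0741) and with the 2 groups compared alone (0.0782). The log2 difference stayed between -0.39 and -0.22 in all of them. As a mean over the 5 times Ezh2 was -0.14 in JNKi against DMSO (SE 0.04, adjusted p = 0.0565), and 0 of the 10 genes passed, where 4.77% of all genes did; Ezh2 passed there in edgeR (adjusted p = 0.0484) and DESeq2 (0.0287).

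Rnf2 and Eed came close to the threshold at 7 d. Rnf2 had 1189.5 and 1202 normalized reads in JNKi and 1554 and 1380.2 in DMSO (log2 change -0.29, SE 0.09, adjusted p = 0.055). Eed had 1733 and 1532 in JNKi and 1306 and 1349 in DMSO (log2 change 0.30, SE 0.10, adjusted p = 0.0592). For both the replicates of the arms did not overlap. Sox4 had 6344 and 6519 in JNKi and 9139 and 7684 in DMSO, again without overlap, and its log2 difference of -0.38 had a 95% interval -0.70 to -0.07 and an adjusted p of 0.114. With the JNKi and DMSO groups of 7 d compared alone, Sox4 passed (adjusted p = 0.0374). Sox9, with 610 and 687 in JNKi and 811 and 751 in DMSO, differed by -0.27 (adjusted p = 0.441). In all, 6 of the 10 genes had both JNKi libraries below both DMSO libraries at 7 d (Ezh2, Jarid2, Ring1, Rnf2, Sox4 and Sox9) and 1 had both above (Eed), where 26.2% of all genes were below and 32% above. Suz12 and Bmi1 differed by -0.01 and -0.02 (95% intervals -0.23 to 0.20 and -0.20 to 0.17).

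**Figure D2:**
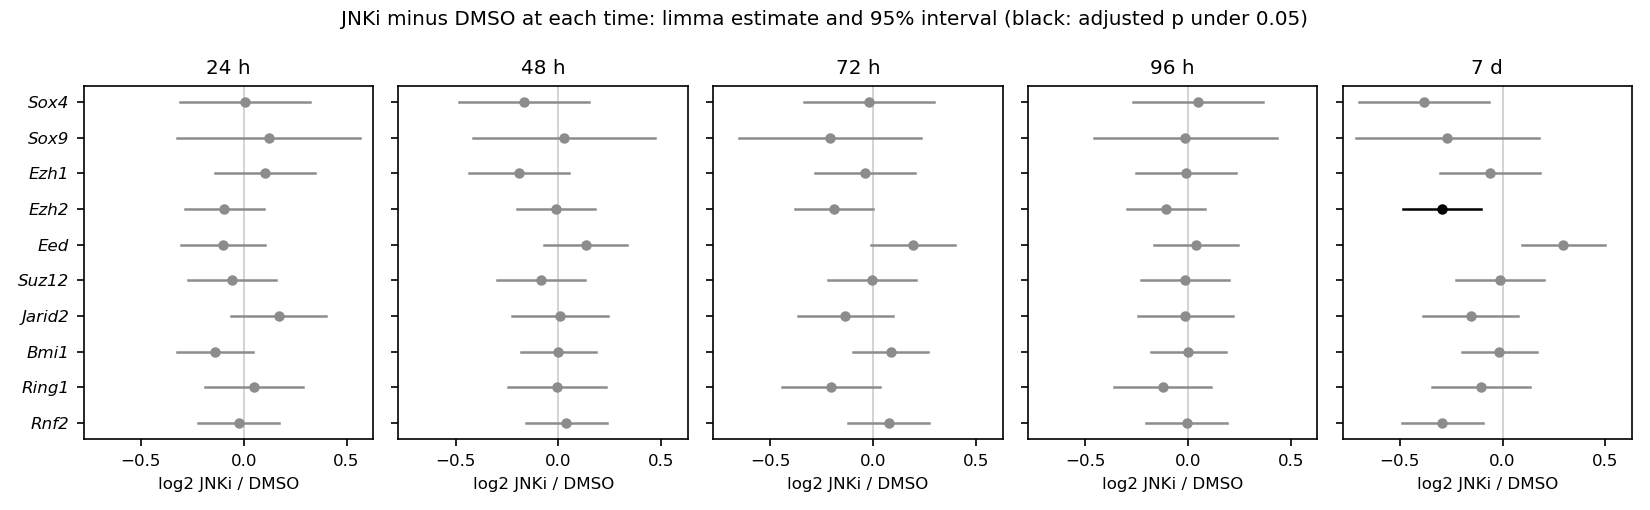
Log2 ratio of JNKi to DMSO (horizontal axis) for the 10 genes at each of the 5 times, as limma estimates with 95% intervals; black marks an adjusted p under 0.05. The intervals of all 10 genes include 0 at 24, 48 and 96 h, and Ezh2 at 7 d is the single black point.

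The JNKi effect at 7 d was set against its mean over 24 to 96 h to ask whether it was particular to the last time. None of the 10 genes passed (0 called, where 3.34% of all genes were; 2761 genes were at an unadjusted p under 0.05), the nearest being Rnf2 (log2 change -0.31, SE 0.10, adjusted p = 0.101), while Sox4 was at an adjusted p of 0.258 (log2 change -0.35, SE 0.17). Some other values differed between the arms at 7 d, and some overlapped. The sum of the 6 luminal markers was 99484 to 106673 normalized reads in JNKi and 131737 to 167067 in DMSO, although of these markers Krt18 alone passed the test (-0.72, adjusted p = 0.00295) and the median log2 difference of the 6 was 0.11. The basal keratins Krt14 (1.90, adjusted p = 0.01) and Krt5 (adjusted p = 0.0272) were higher in JNKi. The other 3 of the 5 basal markers that passed the filter were not called, and the lowest log2 difference was -0.37. The basal markers summed to 7509 to 8202 normalized reads in JNKi and 7577 to 12089 in DMSO, so their sums overlapped. The sum of the mesenchymal genes was 143986 to 152114 in JNKi and 256476 to 295828 in DMSO. Ptprc overlapped between the arms, with 11.1 and 17.5 in JNKi and 11.8 and 5.4 in DMSO. The leukocyte markers summed to 2276 to 2432 in JNKi and 1824 to 1916 in DMSO. Of the 6 tested, 1 was higher in JNKi and 0 were lower, where 4.84% of all genes were higher and 5.33% lower. Replicate 1 of JNKi at 7 d had 9.5 M reads, against 16.7 to 40.9 M in the other 3 libraries of 7 d. Their part in the differences was not tested, and without both replicate 1 libraries of 7 d Ezh2 was at -0.39 (adjusted p = 0.207), as a value with 1 library per arm whose spread was taken from the other groups.

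The complexes were also read from wider lists put together from general knowledge. These lists include members of the 10 genes, such as Ezh2, Eed and Rnf2. Their counts and medians therefore hold changes already given above. Of 11 PRC2 genes, 10 passed the filter. Against 24 h, 2 rose by 7 d and 5 fell in JNKi, with a median log2 change of -0.17, and 1 rose and 5 fell in DMSO, with a median of -0.19, against 0.06 and 0.06 for all genes in the same arms. Of all genes, 31.7% rose and 26.3% fell in JNKi and 32% rose and 28% fell in DMSO, which are also the shares beside the next lists at 7 d against 24 h. Rbbp4, a histone chaperone shared with other complexes, had 5171 and 4873 normalized reads in JNKi at 7 d and 7967 and 8952 in JNKi at 24 h (log2 change -0.75, SE 0.10, adjusted p = 1.71e-05), and 5132 and 5815 in DMSO at 7 d and 8206 and 9448 in DMSO at 24 h (log2 change -0.69, SE 0.10, adjusted p = 3.35e-05). Its relative Rbbp7 also fell (-0.24 in JNKi, adjusted p = 0.0397, and -0.45 in DMSO, adjusted p = 0.000693). Between the arms at 7 d, where 4.84% of all genes were higher and 5.33% lower in JNKi, 1 PRC2 gene was higher and 1 lower: Phf1, which binds methylated H3K36 and helps PRC2 onto chromatin, with 1492 and 1456 in JNKi and 1089 and 1218 in DMSO (log2 change 0.36, SE 0.09, adjusted p = 0.0246), and Ezh2.

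Of 23 PRC1 genes, 22 passed the filter. At 7 d against 24 h, 5 rose and 8 fell in JNKi, with a median log2 change of -0.11, and 4 rose and 9 fell in DMSO, with a median of -0.04. Counted in either direction, 13 of the 22 passed in each arm, near the 58% and 59.9% of all genes in JNKi and DMSO. The largest rise among them in both arms was in Cbx7, a chromodomain subunit that binds methylated H3K27. Cbx7 had 338 and 309 normalized reads in JNKi at 7 d and 155 and 166 in JNKi at 24 h (log2 change 1.00, SE 0.14, adjusted p = 2.51e-05), and 241 and 246 in DMSO at 7 d and 135 and 149.9 in DMSO at 24 h (log2 change 0.77, SE 0.14, adjusted p = 0.000257). Between the arms at 7 d, 1 of the 22 was higher in JNKi and 0 were lower, where 4.84% of all genes were higher and 5.33% lower. The 1 was L3mbtl2, of a variant PRC1, with 1556 and 1465 in JNKi and 1163 and 1154 in DMSO (log2 change 0.38, SE 0.10, adjusted p = 0.02). Phc2, a polyhomeotic subunit, fell over the course in JNKi (-0.60, adjusted p = 1.75e-05) and in DMSO (-0.63, adjusted p = 9.13e-06). Of the 6 genes listed for the removal of these marks, 5 passed the filter, and 2 rose in each arm at 7 d against 24 h, Kdm6b and Asxl2, while 0 fell in JNKi and 1, Bap1, fell in DMSO. Kdm6b, an H3K27 demethylase, had 2257 and 2325 normalized reads in JNKi at 7 d and 1849 and 1390 in JNKi at 24 h (log2 change 0.51, SE 0.14, adjusted p = 0.00419), and 3265 and 2652 in DMSO at 7 d and 1647 and 1358 in DMSO at 24 h (log2 change 0.98, SE 0.14, adjusted p = 1.63e-05).

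**Figure D3:**
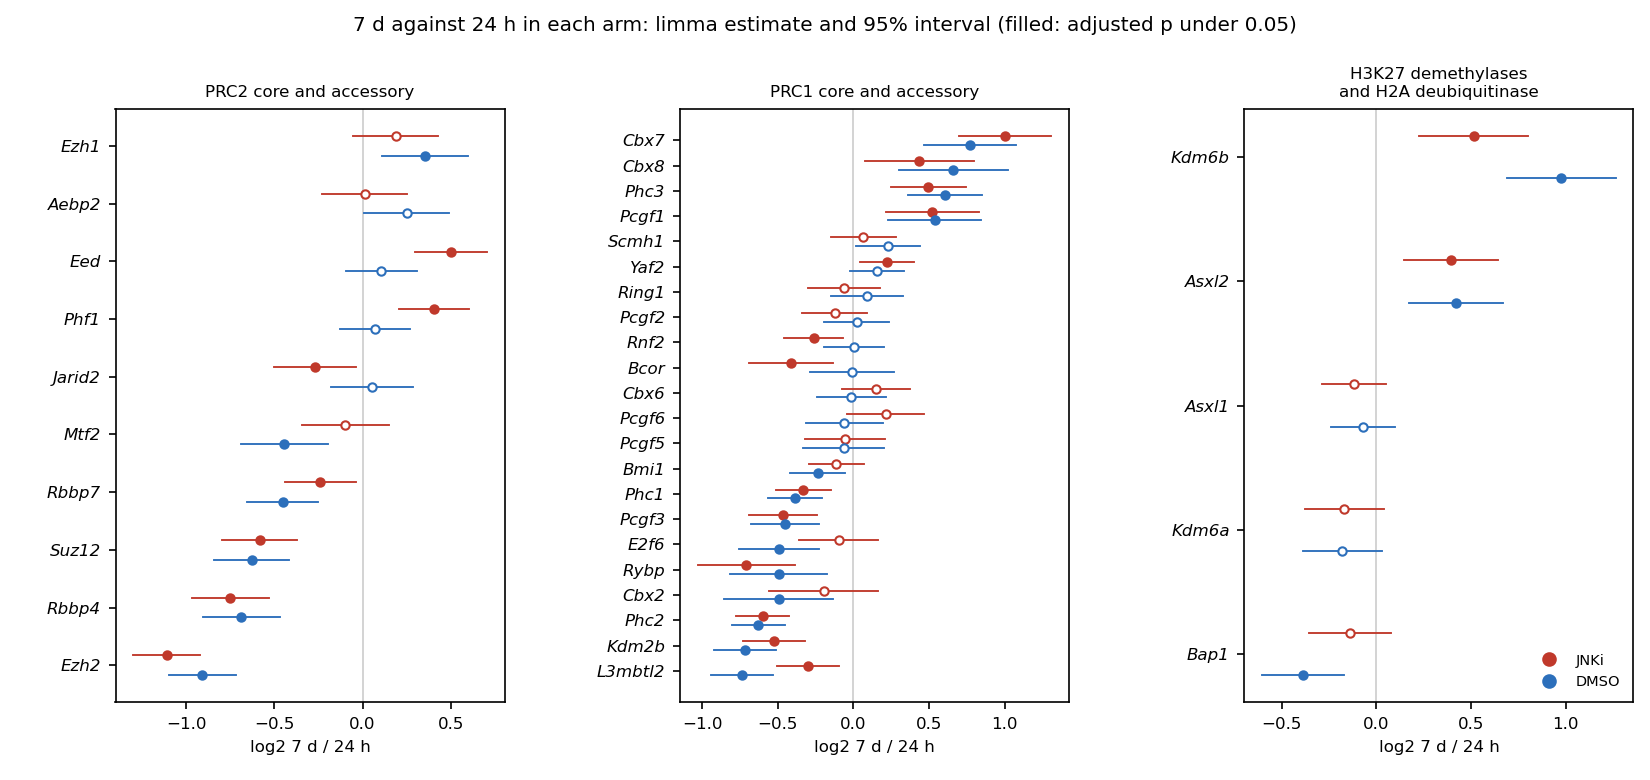
Log2 change at 7 d against 24 h (horizontal axis, a scale per panel) in JNKi and DMSO for the tested genes of PRC2, PRC1 and the list for removal of their marks, as limma estimates with 95% intervals. Filled points have an adjusted p under 0.05. Ezh2 has the lowest value among the PRC2 genes in both arms and Cbx7 the highest among the PRC1 genes.

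Ezh2 is known as a gene of dividing cells, so its course was set beside 16 genes of E2F and proliferation, all of which passed the filter. At 96 h against 24 h, 15 of the 16 fell and 0 rose in JNKi, where 29% of all genes fell, and 15 fell and 0 rose in DMSO, where 30.5% fell, with median log2 changes of -1.97 in JNKi and -2.00 in DMSO. At 7 d against 96 h, 14 rose and 0 fell in JNKi, where 23.2% of all genes rose, and 13 rose and 0 fell in DMSO, where 21% rose, with medians of 1.27 in JNKi and 0.94 in DMSO, while Ezh2 passed in neither arm. Aurkb, a mitotic kinase, had 1173 and 1175 normalized reads in JNKi at 7 d and 263 and 249 in JNKi at 96 h, and 690.1 and 976 in DMSO at 7 d and 266 and 284 in DMSO at 96 h. Top2a, the topoisomerase of dividing cells, had 10018 and 10342 in JNKi at 7 d and 4376 and 4239 in JNKi at 96 h, and 7818 and 8768 in DMSO at 7 d and 3999 and 4486 in DMSO at 96 h. Between the arms at 7 d, 1 of the 16 was higher in JNKi (Aurkb, log2 change 0.52, SE 0.16, adjusted p = 0.0475) and 0 were lower, where 4.84% of all genes were higher and 5.33% lower. The median of the 16 was 0.20, so Ezh2 and the median of these genes had opposite signs in that comparison. Ezh2 and the proliferation genes were not tested against each other.

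The cell cycle inhibitors that Polycomb is known to silence gave 4 tested genes. At 7 d against 24 h, 2 rose and 0 fell in JNKi (Cdkn1a and Cdkn2b) and 1 rose and 1 fell in DMSO (Cdkn2b and Cdkn2c). Cdkn2b, of the Ink4 locus, rose slightly in JNKi (0.25, adjusted p = 0.0216) and in DMSO (0.22, adjusted p = 0.0405). Cdkn1a, the p21 gene, had 7683 and 7907 normalized reads in JNKi at 7 d and 4482 and 6371 in DMSO at 7 d (log2 change 0.54, SE 0.13, adjusted p = 0.0136), the 1 gene of the 4 to differ between the arms at that time, where 10.2% of all genes did.

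**Figure D4:**
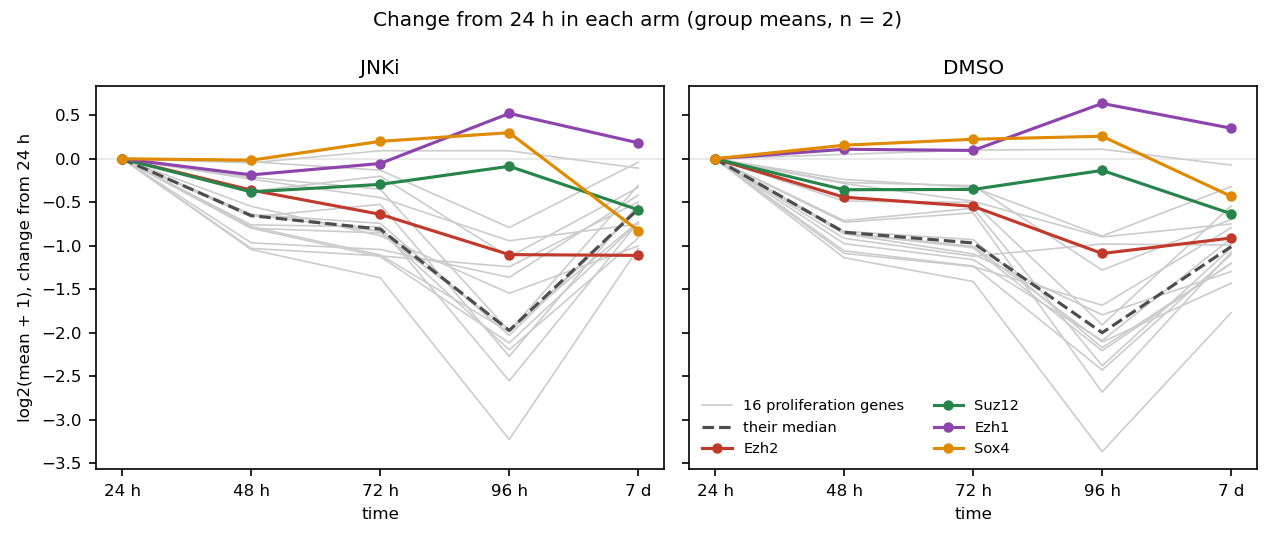
Change from 24 h of log2(group mean + 1) (vertical axis) over time in JNKi (left) and DMSO (right), for Ezh2, Suz12, Ezh1 and Sox4, with 16 proliferation genes in grey and their median dashed. The proliferation genes fall to 96 h and are higher again at 7 d, while Ezh2 lies about as low at 7 d as at 96 h.

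Per kilobase of exon, over the 10 group means, the levels ran from Sox4 with 2408 normalized reads per kb through Suz12 with 799, Bmi1 with 530, Ezh2 with 367, Rnf2 with 363, Eed with 351, Sox9 with 338, Ring1 with 216 and Ezh1 with 144 to Jarid2 with 57.2. The lengths are unions of exons in GENCODE vM21, which may differ from the transcripts these cells use. The ranges of group means of Ezh2 (243 to 559), Rnf2 (290 to 437), Eed (301 to 426) and Sox9 (157 to 452) overlap, so their order among themselves is not fixed. Sox4 stood apart, with a lowest group mean of 1341 per kb. In the same annotation exons of Sox4, Ezh2, Eed and Suz12 overlap a noncoding gene on the opposite strand, and exons of Rnf2 overlap Trmt1l, a tRNA methyltransferase-like gene. Whether counting used strand is not given in the sources used here. Reads of these pairs therefore cannot be told apart.

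A group mean of 50 or more was reached by 11598 genes besides the one compared. Those most like Sox4 by Pearson correlation of mean log2 values over the 10 groups were Pds5b, a cohesin regulator, with 0.972, Cnot1, the scaffold of the CCR4-NOT deadenylase, with 0.972, and Nedd4, a ubiquitin ligase, with 0.968. Pds5b had 1778 normalized reads in JNKi and 2060.1 in DMSO at 7 d, against 2538 in JNKi and 2568 in DMSO at 24 h. Those most like Ezh2 were Nmral1, an NADPH sensor, with 0.995, Proc, the protein C gene, with 0.993, and Bckdk, a kinase of branched-chain amino acid breakdown, with 0.992. Nmral1 had 249 normalized reads in JNKi and 332 in DMSO at 7 d, against 959 in JNKi and 1069 in DMSO at 24 h. Among the 10 genes, the highest correlations besides that of Sox4 with Sox9 were 0.84 for Ezh1 with Ring1 and 0.78 for Suz12 with Bmi1. These groups share their times and arms, and the correlations are descriptions over 10 points.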

How the data were processed

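RNA of 35 NMuMG samples was sequenced. The 15 samples of a TGF-β time course were not used, since the values of their table are split at the decimal point and a cell cannot be tied to a library. For the other 20, the authors deposited a table of 20261 genes whose signal is a normalized read count for each library. Per the submitters' processing notes, TopHat, HTSeq, DESeq and build mm9 were used, without versions. The sources used here do not give the strand setting or any gene filter. All columns of the table matched a sample, so 0 columns were left without one.

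Low values were whole multiples of 1 step per library, and division by it gave whole reads (within 0.1 of a whole number) for 99.96 to 100% of values above 0. Depth was taken from these reads, and precision differs with it.

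Deposited values were put on the log2 scale after adding 1 and fitted in R 4.3.3 by limma 3.58.1 with its trend option and a mean for each of the 10 groups, over all 20 libraries. A gene entered where any group averaged 10 or more (13896 genes). Two-sided p-values were adjusted by the Benjamini-Hochberg method across all genes that entered, and 0.05 was the threshold. Fold changes on this scale understate the change of low genes. Groups and times came from the sample titles. Alternatives were pseudocounts of 0.5 and 8, no filter or a filter at 50, TMM, no trend, edgeR 4.0.16 and DESeq2 1.42.0 on the recovered reads, replicate blocks, the 2 groups compared alone, and each library left out. The fit was tested on simulated data.

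From each list up to 4 genes are named per comparison, the 2 with the largest change past the test and the 2 with the highest mean, and the 10 genes always. A gene of the PRC1 list is not reported here and is left out of its counts. The genes and lists were chosen with earlier results of these data known. The comparisons of 7 d with 96 h, the motifs and the fit without both replicate 1 libraries of 7 d were added after the data had been seen. Promoters came from RefSeq and exon lengths from GENCODE, both on GRCm38.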

Additional observations from a re-analysis of the deposited data

Results flagged for a closer look

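The JNKi effect at 7 d, JNKi over DMSO, was set against its mean at 24 to 96 h, and 4 genes named in the text passed the test of that difference by limma, none of them among the 10 genes. The log2 difference between the effects was 1.23 for Col11a2 (adjusted p = 0.00529), 0.69 for Aurkb (adjusted p = 0.0401), 0.48 for Phf1 (adjusted p = 0.0195) and -0.95 for Fn1 (adjusted p = 0.0176). Of all genes tested, 3.34% passed.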

How the results depend on the processing

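Across the alternatives 3826 single-gene values kept their direction and side of the threshold, 61 fell out of a call, 37 came into one, and 86 changed sign while under the threshold both ways. Of the called values, 0 changed sign. For JNKi against DMSO at 7 d, with 1 of the 10 genes called, 3 were called with a pseudocount of 8, 2 with the filter set at 50, 2 with TMM, and 0 without the trend or without both replicate 1 libraries of 7 d, and leaving out each library gave 0 to 2. For the mean of 5 times, with 0 called, 1 was called with TMM, edgeR and DESeq2, and leaving out each library gave 0 to 1. JNKi at 96 h against 24 h, with 3 called, gave 5 with the 2 groups compared alone and 2 to 5 with a library left out. DMSO at 7 d against 24 h gave 3 to 6, DMSO at 7 d against 96 h 2 to 5, and JNKi at 7 d against 96 h 4 to 7. Over all genes, edgeR on the recovered reads called 1589 for JNKi against DMSO at 7 d and limma 1414. In that comparison 14.6% of all genes were called with a pseudocount of 8, 12.7% with the filter at 50 and 11% with TMM. Without the trend the share was 8.41%, against 10.2% in the main fit. For the mean of 5 times TMM called 733 genes, edgeR 654 and DESeq2 846, where limma called 663. For JNKi at 96 h against 24 h the share was 57.7% with the 2 groups compared alone, against 59.8%. DESeq2 called 103 at 72 h, 35 at 96 h and 843 for the effect at 7 d against earlier times, where limma called 10, 1 and 464. The cause of these moves was not tested.

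Libraries with the same replicate number in both arms deviated together at 24 to 96 h (correlations of 0.726, 0.591, 0.723 and 0.527 over 9605 genes) but not at 7 d (0.072), so the numbers were not taken to pair the samples, which would have needed every correlation to be over 0.1. Between groups of different times such correlations ran from -0.394 to 0.554, with a median of -0.0145, and the 0.527 of 96 h lies within that range. With the replicate number as a block within each time, 5 of the 10 genes were called in JNKi against DMSO at 7 d (adjusted p = 0.00541 for Sox4, 0.0308 for Sox9, 0.00701 for Ezh2, 0.0182 for Eed and 0.0182 for Rnf2), 1 in the mean of 5 times (Ezh2, adjusted p = 0.00777), and 2 in the effect at 7 d against earlier times. Under that block 25.3%, 15.8% and 17.4% of all genes were called in these comparisons, against 10.2%, 4.77% and 3.34% in the main fit. A single replicate block over all times left 1 called at 7 d, where 12.2% of all genes were called. Depth limits replicate 1 of JNKi at 7 d most, with 9.5 M reads.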
